A study of Homo sapiens with 8 samples.

Results

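HuCCT1 is an established human cell line from an intrahepatic cholangiocarcinoma, a cancer of the bile ducts inside the liver. HuCCT1 cells carrying the shNontarget vector were compared with HuCCT1 cells carrying the shControl vector, and the labels call the cells of either vector control cells. Neither vector is labelled as carrying a hairpin against BEX2. Described are the genes for which both shNontarget arrays lay on the same side of both shControl arrays, 5401 of the 20422 genes measured (26.4%), apart from those on which the shNontarget arrays disagreed. The comparison used 4 of the 8 arrays of the series, 2 for each of these vectors, and the other 4 arrays came from cells with the knockdown vectors shBEX2-1 and shBEX2-2, whose values are given here only beside those of the controls. All cells received a short hairpin RNA vector, which the methods describe as retroviral. The paper speaks of a control hairpin directed at luciferase and does not say which of the control vectors carried it, so what else sets shNontarget apart from shControl is not known here. No source states that a vector's arrays stem from different cultures, so p-values measure only the spread between these arrays, which may be technical.

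A short hairpin RNA is processed by the RNA interference machinery of the cell into a small RNA that guides the cleavage of matching transcripts, and a control hairpin is chosen to match no human transcript. Such vectors serve as the baseline against which a knockdown is read. The interferon response is the antiviral programme that cells start on sensing foreign RNA or secreted interferon, and long double-stranded RNA is among its known triggers. The comparison asks how far the baseline itself moved between the control vectors.

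Levels are given as the log2 of the processed intensity of a probe minus the 75th percentile of its array, so that 1 unit is a doubling and 0 is the level of a fairly bright probe. The 75th percentile was an intensity of 730 and 838 on the shControl arrays and 748 and 667 on the shNontarget arrays, and between 59.8% and 64.6% of the probes were well above background on these 4 arrays. All 10 markers of biliary epithelium on the list, KRT7, KRT8, KRT18 and KRT19 among them, were measured on these arrays, with summed intensities of 655000 and 712000 for shControl and 710000 and 442000 for shNontarget. Markers of other cell types were measured in part. The hepatocyte markers APOA1, CYP2E1 and SERPINA1 passed the background filter and ALB, TTR, CYP3A4 and TF did not, with summed intensities over the list of 6120 and 6570 for shControl and 5920 and 2770 for shNontarget. The fibroblast markers COL1A1 and LUM, the leukocyte markers PTPRC, CD14 and CD68 and the endothelial markers VWF and CDH5 passed, and COL1A2, COL3A1, DCN, PDGFRB, CD3E, PECAM1 and KDR did not. The summed intensities of these 3 lists were between 116 and 1510 on the 4 arrays. The part of such cells or transcripts in the differences was not tested. The 4 arrays shared 1 slide and 1 scan.

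Of 20422 genes, 2924 had both shNontarget arrays above both shControl arrays and 2477 had both below, which is 14.3% and 12.1% of the genes. For a larger number, 11427 genes or 56.0%, the shNontarget arrays lay on opposite sides of both shControl arrays. Array 1 was the higher in 5224 of these (25.6% of all genes), and array 2 was the higher in 6203 (30.4%). The remaining 3594 genes had at least 1 shNontarget array within the range of the shControl arrays. The counts of genes on the same side are a description, since the genes were chosen by these values.

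The shNontarget arrays stood further apart than those of any other vector. The 2 shNontarget arrays were more than 1 log2 unit apart in 7224 genes, or 35.4%, against 468 genes, or 2.29%, for the shControl arrays and 1.81% and 0.847% for the arrays of shBEX2-1 and shBEX2-2. The median difference between the arrays of a vector was 0.711 for shNontarget and 0.117 for shControl. Over the 20422 genes the levels of the shNontarget arrays correlated at r = 0.932, below the correlation of any shNontarget array with any shControl array, which ran from 0.961 to 0.97. The shControl arrays correlated at 0.987. Genes on 1 array are not independent replicates, and these correlations are given as a description.

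No gene passed limma's test at an adjusted p of 0.05 (0% of the genes, Benjamini-Hochberg over all 20422), and the lowest adjusted p was 1. At an unadjusted p under 0.05 there were 437 genes, 2.14% of those tested, of which 227 were higher and 210 lower in shNontarget cells. Leaving out shNontarget array 1 turned the count of genes at an adjusted p under 0.05 to 8493, and leaving out shNontarget array 2 turned it to 8941, with the lone array then assumed to vary as little as the shControl arrays do. Either fit leaves out the spread between the shNontarget arrays. In what follows a gene is called higher or lower where both shNontarget arrays lay on that side of both shControl arrays, and no such gene passed the adjusted test.

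**Figure D1:**
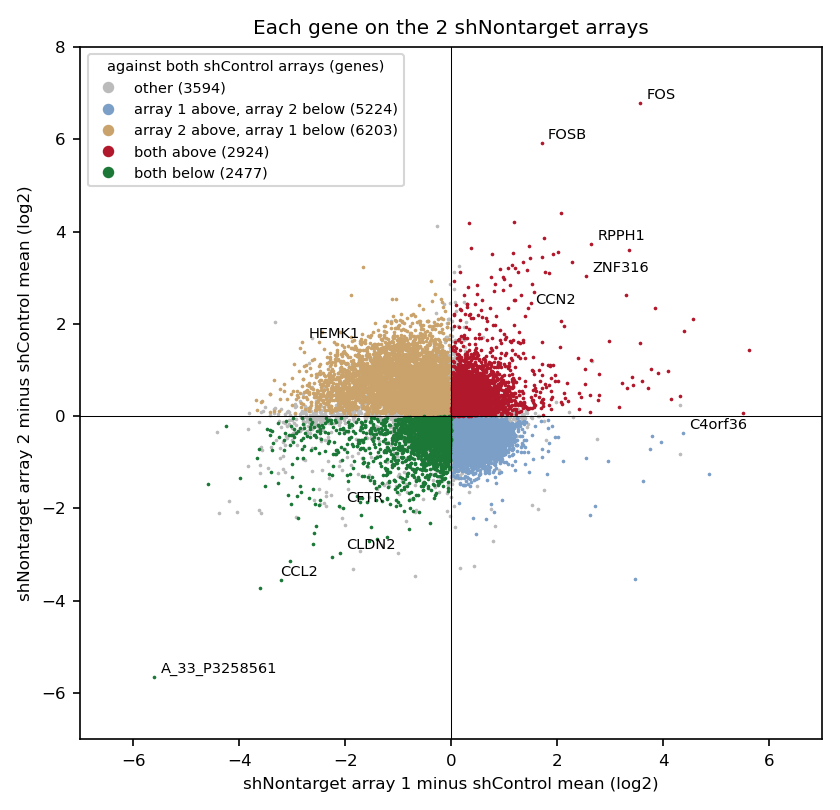
Each point is a gene, placed by its log2 level on shNontarget array 1 (horizontal axis) and on array 2 (vertical axis), each minus the mean of the 2 shControl arrays. Genes with the arrays beyond both shControl arrays on opposite sides (5224 and 6203) outnumber those with both above (2924) or both below (2477). FOS, FOSB, CCL2 and an unnamed probe stand far out along the shared direction.

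Among the same-side genes, 4904 had both pairs of arrays within 1 log2 unit of each other, 2699 above and 2205 below. Their differences were mostly small: over all same-side genes the median size was 0.4. In 68 genes above and 101 below, with both pairs that close, the mean difference was over 1. The difference is given as shNontarget minus shControl, with limma's standard error (SE) from 2 arrays per vector.

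The 10 named genes with the largest differences on the lower side included genes of the epithelial surface and of inflammatory signalling. CCL2, the chemokine that draws monocytes, was at 1.21 and 1.25 on the shControl arrays and at -1.02 and -1.83 on the shNontarget arrays, a difference of -2.66 (SE 0.34). Its intensity was 1690 and 2000 with shControl and 368 and 188 with shNontarget, so that each shNontarget array lay far below both shControl arrays. The probe lies at chr17:32584050-32584109 of hg19. The cells of shBEX2-1 were also low in CCL2, at -1.1 and -1.3, and those of shBEX2-2 lay between, at -0.08 and -0.15.

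CLDN2, which forms the cation-selective pores of leaky tight junctions, was at 0.68 and 0.79 with shControl and at -1.36 and -2.22 with shNontarget, a difference of -2.53 (SE 0.37). CFTR, the chloride channel of the bile duct lining that drives bicarbonate-rich secretion, was at 0.66 and 0.80 with shControl and at -1.38 and -1.22 with shNontarget, a difference of -2.03 (SE 0.21). The shNontarget arrays lay 0.17 apart for CFTR. CFTR had the second lowest p of all genes, and its probe lies at chr7:117308553-117308612 of hg19. For CFTR the knockdown vectors parted, at 0.41 and 0.57 with shBEX2-1 and -1.07 and -1.02 with shBEX2-2.

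The other genes named on the lower side were dimmer with shControl. TLR4, the receptor for bacterial lipopolysaccharide, was at -2.95 and -2.93 against -4.67 and -4.80, but another of its probes put the shNontarget arrays on opposite sides, with a mean difference of -0.54. IL4I1, a secreted amino acid oxidase of immune cells, was at -1.62 and -1.75 with shControl and at -3.43 and -3.47 with shNontarget. GJA1, the gap junction protein connexin 43, was at -3.09 and -2.96 with shControl and not well above background on either shNontarget array, which puts it at least 3.76-fold lower there.

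FGF19, the bile-acid-induced hormone, was not well above background with shNontarget either, nor with the knockdown vectors, and was at least 3.27-fold lower with shNontarget. ZC4H2, a zinc finger gene, and OR6K2, an olfactory receptor gene, were at least 2.55-fold and 1.72-fold lower, and neither was well above background with shNontarget. These bounds set the shControl mean against the lowest level that counted as measured on each shNontarget array, or against the probe's own value where that was higher.

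The lowest p of all 20422 genes belonged to a probe that the array design does not name, A_33_P3258561, at chr7:107408004-107408063 of hg19. It was at -2.04 and -1.42 with shControl and was dimmer than the background cut-off with all other vectors, which puts it at least 11.9-fold lower with shNontarget. The p of this probe thus rests on values under that cut-off on both shNontarget arrays. What it binds is not known here.

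On the higher side most of the 10 named genes were dim. CCN2, the matrix protein also called connective tissue growth factor and a textbook target of YAP and TGF-beta signalling, was at -1.54 and -1.39 with shControl and at -0.01 and 0.87 with shNontarget, a difference of 1.90 (SE 0.37). CCN2 was lower than shControl in all 4 arrays of the knockdown vectors, between -2.35 and -2.19. CCN5, of the same protein family, was at -4.06 and -3.63 against -1.98 and -2.77.

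HES1, the transcription repressor downstream of Notch, was at -2.69 and -3.00 with shControl and at -1.84 and -1.06 with shNontarget, a difference of 1.39 (SE 0.37). The 4 arrays of the knockdown vectors were at -3.68, -4.18, -4.43 and -4.66, so that HES1, like CCN2, lay above shControl with shNontarget and below it with both hairpins against BEX2. ZNF316, a zinc finger gene, had the largest difference of these 10 genes, 2.79 (SE 0.31), from -4.18 and -4.35 to -1.71 and -1.22.

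SORCS3, a sorting receptor, was at -4.59 and -4.84 against -3.54 and -2.74. Its other probe gave a difference of 1.86 in the same direction, but was not well above background on either shControl array. MYLK2, the myosin light chain kinase of skeletal muscle, the non-coding LINC00520 and LOC646999 were higher by 1.44, 1.42 and 1.39. The histone gene H4C16 was not well above background with shControl and was at least 2.21-fold higher with shNontarget. RNU2-2, a small nuclear RNA of the spliceosome, was at 0.57 and 0.13 with shControl and at 1.52 and 2.0 with shNontarget.

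**Figure D2:**
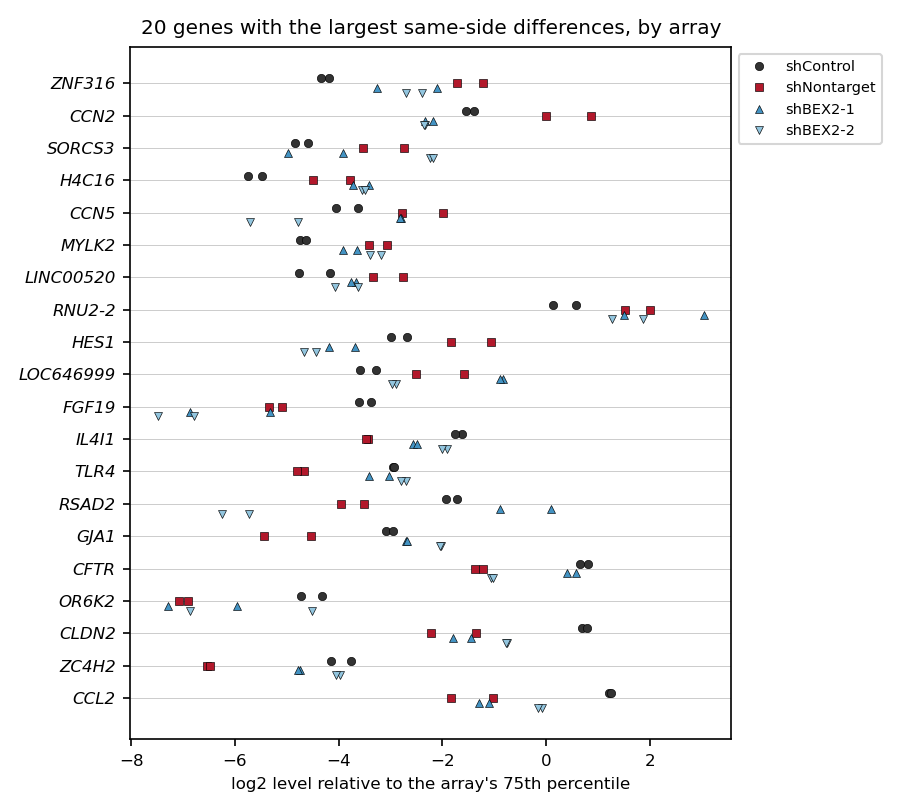
Levels of the 20 genes with the largest same-side differences among those whose pairs of arrays lay within 1 unit (log2 relative to the 75th percentile of the array), with 1 symbol per array and 2 arrays per vector. The 2 shNontarget squares lie to one side of the 2 shControl circles in every row, which the choice of genes requires. The shBEX2 triangles fall on either side of them, as for CFTR and RSAD2.

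Genes of mitosis had the highest share of members on one side among the 29 gene lists. Of 51 G2/M genes measured, 40 were higher in both shNontarget arrays (78.4%, against 14.3% of all genes). Only CBX5, a heterochromatin protein, was lower (1.96%, against 12.1%). Array 1 was above and array 2 below the shControl arrays for 5 (9.8%, against 25.6% of all genes). The median difference was 0.60, beside -0.01 over all genes. Against the shControl mean the median was 0.80 on shNontarget array 1 and 0.37 on array 2. None passed the adjusted test, and 16 of the 51 had an unadjusted p under 0.05, against 2.14% of all genes. In bulk RNA more or fewer cells of a kind and more or less RNA in each cell cannot be told apart.

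NUF2, a kinetochore subunit that holds spindle microtubules, was at -1.29 and -1.34 with shControl and at -0.31 and -0.19 with shNontarget, a difference of 1.06 (SE 0.20). PSRC1, a spindle protein, was at -1.73 and -1.72 against -0.95 and -0.41. CENPE, the kinetochore motor, HJURP, the chaperone that loads centromeric histone, and KIF23, a motor of cytokinesis, were higher by 0.99, 0.92 and 0.91. MKI67, the proliferation marker Ki-67, was at 0.58 and 0.56 with shControl and at 0.75 and 1.49 with shNontarget, a difference of 0.55 (SE 0.33). Its other probes gave 0.63, with both shNontarget arrays above, and 0.46, with array 1 below.

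The mitotic genes were higher still with the knockdown vectors. Against the same shControl arrays, the median over the list was 1.56 and 1.52 on the arrays of shBEX2-1 and 1.91 and 1.82 on those of shBEX2-2, and these comparisons share the shControl arrays with the one above. NUF2 was at 0.37 and 0.33 with shBEX2-1 and at 0.92 and 0.76 with shBEX2-2, and the shNontarget arrays lay between shControl and either.

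Genes of DNA replication had a lower share on the higher side than the mitotic genes. Of 42 S phase genes, 15 were higher (35.7%, against 14.3% of all genes) and 1 lower in both shNontarget arrays, 18 were above on array 1 and below on array 2 (42.9%, against 25.6%), and the median difference was 0.20. The median was 0.36 on array 1 and 0.02 on array 2. CDC45, a part of the replicative helicase, was at 0.53 and 0.52 against 1.19 and 1.15. Both pairs lay close together for CDC45.

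Promoters of the mitotic genes are shown because many carry a CCAAT box, which the activator NF-Y binds, and a cell cycle homology region, through which such genes are held down in resting cells. The letters CCAAT and TTTGAA were searched on both strands in the 250 bases before the start of each gene. Both were found in 20 of 44 promoters of the list that the table holds (45.5%), in 14 of the 34 belonging to genes that were higher (41.2%), and in 1325 of all 27305 promoters (4.85%). The stretches below are from RefSeq on GRCh38.p14, read along the gene, with the matches on either strand in capitals (ATTGG and TTCAAA are the letters on the other strand), for 4 of the higher genes with large differences that hold both.
HJURP, chr2:233854583-233854724, minus strand: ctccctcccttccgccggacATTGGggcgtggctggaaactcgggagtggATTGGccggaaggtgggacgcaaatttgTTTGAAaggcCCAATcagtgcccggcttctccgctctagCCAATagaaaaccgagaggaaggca
KIF23, chr15:69414265-69414319, plus strand: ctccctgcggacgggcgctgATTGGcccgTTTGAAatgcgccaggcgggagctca
GTSE1, chr22:46296824-46296869, plus strand: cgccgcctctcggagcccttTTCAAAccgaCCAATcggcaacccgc
CDC20, chr1:43358783-43358950, plus strand: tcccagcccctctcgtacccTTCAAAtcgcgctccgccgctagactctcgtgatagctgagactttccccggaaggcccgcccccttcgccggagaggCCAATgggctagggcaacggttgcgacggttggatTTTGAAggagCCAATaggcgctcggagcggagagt

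The differences of these 4 genes were 0.92, 0.91, 0.87 and 0.85, in the order shown. In each of the 4 stretches a match to one element lies within a few bases of a match to the other. A match is a description of letters and not a sign that the element was in use.

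Interferon-stimulated genes lay the other way. Of 39 measured, 24 were lower in both shNontarget arrays (61.5%, against 12.1% of all genes) and none was higher (against 14.3%). Of the 39, 11 had the arrays on opposite sides, as 56.0% of all genes did. The median difference was -0.39, with -0.30 on array 1 and -0.65 on array 2. None passed the adjusted test, and 7 of the 39 had an unadjusted p under 0.05, against 2.14% of all genes.

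RSAD2, the antiviral enzyme viperin, was at -1.93 and -1.71 with shControl and at -3.52 and -3.96 with shNontarget, a difference of -1.92 (SE 0.30). CMPK2, its neighbour and a nucleotide kinase, was at -1.52 and -1.28 against -2.61 and -3.19, a difference of -1.50 (SE 0.31). MX2, a GTPase that blocks viral entry into the nucleus, was at 0.64 and 0.92 against -0.28 and -0.63.

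Several of the brightest interferon genes did not follow. ISG15, the ubiquitin-like modifier, was at 4.28 and 4.29 with shControl and at 4.57 and 3.31 with shNontarget, with array 1 above and array 2 below. BST2, which tethers budding virus to the membrane, was at 3.08 and 2.94 against 3.24 and 1.51. STAT2, a transcription factor that carries the interferon signal, went the other way round, at 4.13 and 4.2 against 3.72 and 4.78.

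The knockdown vectors lay on either side of the controls for this list. The median against shControl was 0.07 and 0.70 on the arrays of shBEX2-1 and -0.99 and -0.92 on those of shBEX2-2. RSAD2 was at -0.89 and 0.09 with shBEX2-1 and at -6.24 and -5.73 with shBEX2-2. It was not well above background on either shBEX2-2 array, so those 2 levels are not a measured size. The shNontarget level lay between the shControl level and that of shBEX2-2.

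The core of the interferon-stimulated response element, searched on either strand as GAAA, any 2 bases and GAAA again, was in 17 of the 33 promoters of the list that the table holds (51.5%) and in 839 of all 27305 (3.07%). Of the 18 promoters of genes that were lower 9 held it. The stretches of 4 lower genes that hold it are shown, whose differences were -1.12, -1.07, -0.60 and -0.52 in the order shown. Lower genes with larger differences, such as RSAD2 and CMPK2, are not among the 4. The stretches are from RefSeq on GRCh38.p14, read along the gene with the matches in capitals, which may overlap.
EPSTI1, chr13:42992262-42992311, minus strand: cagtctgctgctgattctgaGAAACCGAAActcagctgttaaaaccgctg
IFI6, chr1:27672256-27672368, minus strand: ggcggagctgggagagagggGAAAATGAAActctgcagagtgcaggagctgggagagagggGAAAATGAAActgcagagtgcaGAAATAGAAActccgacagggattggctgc
IFIH1, chr2:162318685-162318863, minus strand: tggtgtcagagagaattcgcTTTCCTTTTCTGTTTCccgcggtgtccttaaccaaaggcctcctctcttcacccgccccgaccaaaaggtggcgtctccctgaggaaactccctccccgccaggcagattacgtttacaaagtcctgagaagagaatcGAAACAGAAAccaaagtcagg
OAS3, chr12:112938311-112938473, plus strand: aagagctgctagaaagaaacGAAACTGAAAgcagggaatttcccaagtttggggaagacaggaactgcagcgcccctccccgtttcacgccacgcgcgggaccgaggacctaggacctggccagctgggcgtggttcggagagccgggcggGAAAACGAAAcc

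EPSTI1, an interferon-induced gene first described at the border of epithelium and stroma, was at -2.34 and -2.05 against -2.99 and -3.64. IFI6, a mitochondrial and antiviral protein whose promoter holds 3 matches, was at 1.59 and 1.75 against 1.14 and 0.07, with its shNontarget arrays 1.07 apart. IFIH1, the sensor of long double-stranded RNA, was at 1.39 and 1.41 against 0.91 and 0.70. OAS3, which makes the second messenger that switches on RNase L, was at -0.32 and -0.25 against -1.04 and -0.58.

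Immediate-early genes, which cells transcribe within minutes of a growth factor or stress signal, were mostly higher. Of 33 measured, 20 were higher (60.6%, against 14.3% of all genes) and 3 lower (9.09%, against 12.1%) in both shNontarget arrays, and the median difference was 0.32, with 0.29 on array 1 and 0.43 on array 2. With the knockdown vectors the list median was between -0.31 and -0.16. An unadjusted p under 0.05 was found for 5 of the 33, against 2.14% of all genes, and none passed the adjusted test.

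FOS, a part of the transcription factor AP-1, was at -3.08 and -3.04 with shControl and at 0.51 and 3.73 with shNontarget. Its intensity was 86.5 and 103 with shControl and 1060 and 8870 with shNontarget. All 4 arrays of the knockdown vectors stayed near shControl, between -3.21 and -2.77, so that high FOS was seen on the shNontarget arrays only. The difference was 5.18 (SE 1.15), a 36.2-fold difference of means, yet the shNontarget arrays themselves were 3.22 apart. The FOS probe lies at chr14:75748214-75748273 of hg19.

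FOSB, another AP-1 subunit, was at -3.48 and 0.73 with shNontarget and failed that background cut-off with all other vectors, which puts it at least 14-fold higher than with shControl. EGR1, a zinc finger factor of the same early response, was at 2.10 and 2.08 against 2.82 and 4.44. DUSP1, a phosphatase that turns MAP kinases off, was at -1.31 and -1.34 against -0.66 and 0.81. In each of these genes array 2 was well above array 1, and array 1 was above both shControl arrays.

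KLF2, a transcription factor also counted among the quiescence genes, was higher by 1.19 (SE 0.21), and its shNontarget arrays lay 0.11 apart, at -0.24 and -0.12 against -1.3 and -1.45. EGR4, SPRED1 and ATF3 were the 3 immediate-early genes that were lower. EGR4 was at -3.10 and -3.11 against -3.87 and -3.91.

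**Figure D3:**
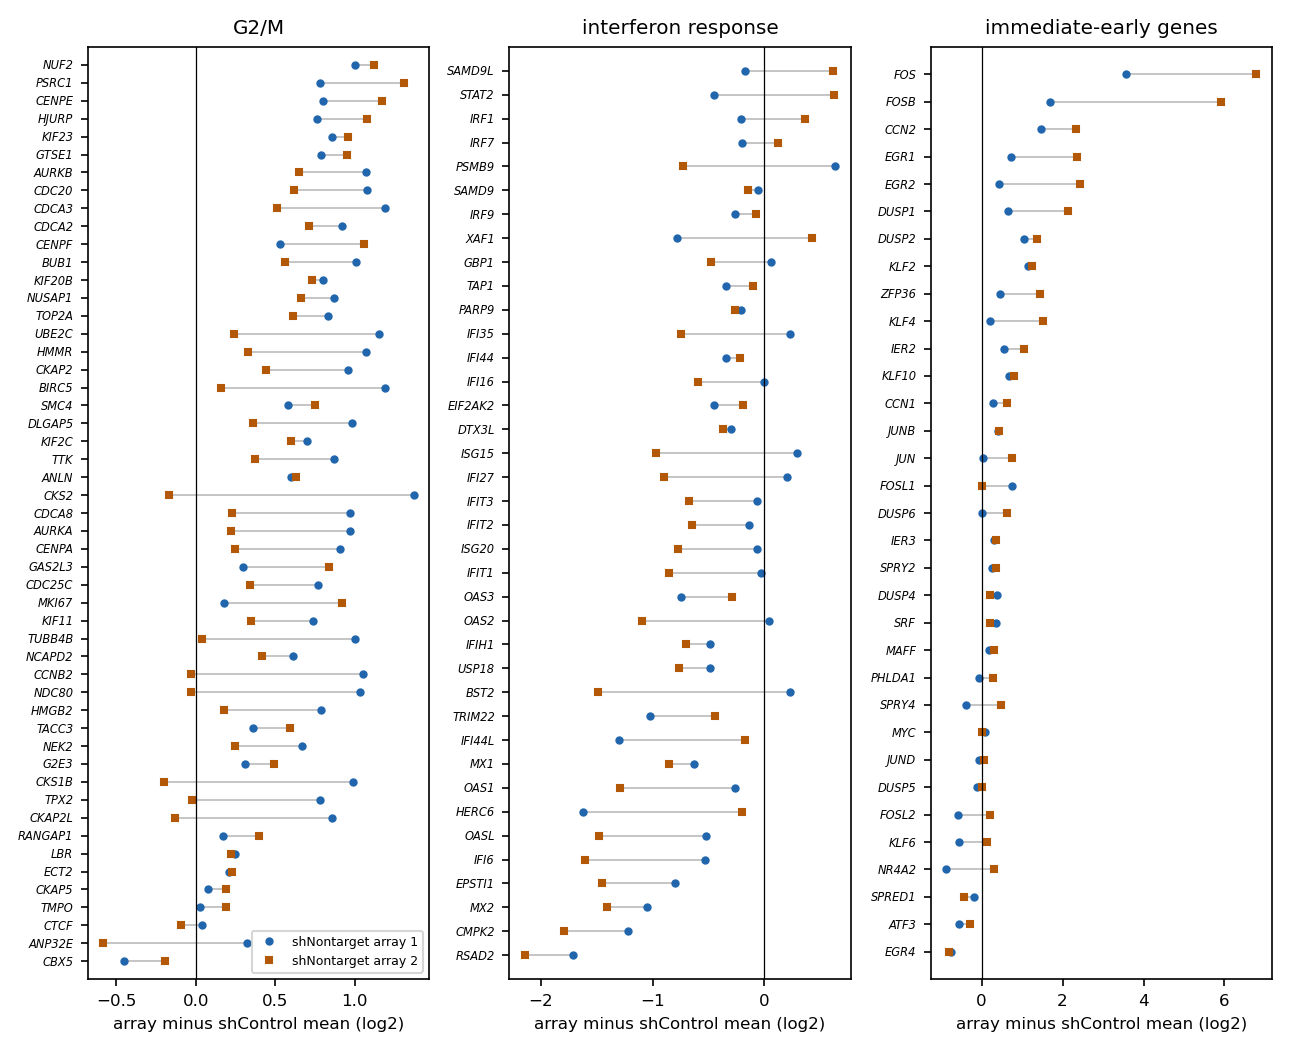
Level of each gene of the G2/M, interferon response and immediate-early lists on shNontarget array 1 (circles) and array 2 (squares) minus the mean of the shControl arrays (log2), with a line joining the arrays. The counts are over whole lists, of which 1 interferon gene is not drawn. Most G2/M genes lie to the right of 0 on both arrays (40 of 51), 24 of 39 interferon genes lie to the left, and FOS and FOSB lie far to the right with a wide gap between the arrays.

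Inflammatory cytokines went in both directions. Of 29 NF-kB chemokines and cytokines, 8 were higher (27.6%, against 14.3% of all genes) and 12 lower (41.4%, against 12.1%) in both shNontarget arrays. An unadjusted p under 0.05 was found for 8 of the 29, against 2.14% of all genes, and an adjusted one for none. Beside CCL2, the lower ones held CXCL6, a neutrophil chemokine, at -2.48 and -2.33 against -3.41 and -4.27, and TNFSF10, the death ligand TRAIL, at 1.47 and 1.53 against 0.19 and -0.33. The other probe of TNFSF10 gave a difference of -1.63, next to -1.58 for the first. ICAM1, the adhesion molecule, was at 1.23 and 1.27 against 0.57 and 0.67.

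The higher cytokines held CSF2, the growth factor GM-CSF, at 0.58 and 0.48 against 1.47 and 1.89, IL6, at -0.12 and 0.02 against 0.39 and 1.31, and IL1A and IL11, higher by 0.70 and 0.74. CXCL2, a chemokine of the same family as CXCL6, was also higher, at 0.17 and 0.20 against 0.69 and 2.37. The median of this list was near 0 on both shNontarget arrays, at -0.16 and -0.04.

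Of 28 epithelial-mesenchymal genes, 12 were lower (42.9%, against 12.1% of all genes) and 4 higher (14.3%, the share over all genes), with a median of -0.19 on array 1 and -0.20 on array 2. The lower ones were of either kind: the epithelial CDH1, which is E-cadherin and was at 3.23 and 3.30 against 2.65 and 2.78, with CLDN1, CLDN3 and OCLN of the tight junction, and the mesenchymal CDH2, FN1 and ITGB3. CLDN3 was at 1.58 and 1.49 against 0.73 and -0.13. SNAI2, a repressor of E-cadherin, was higher, at -0.44 and -0.63 against 0.51 and 0.20.

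Of 15 keratins, 3 were higher (20%, against 14.3% of all genes) and 4 lower (26.7%, against 12.1%). KRT23 was among the latter, at -1.73 and -1.99 against -2.91 and -3.80. Its second probe gave -1.49, but was not well above background on either shNontarget array. KRT17 was at 0.30 and 0.22 against -0.23 and -1.18. The keratins that mark the bile duct lining, KRT7 and KRT19, were at 7.67 or above on all 4 arrays, and neither had both shNontarget arrays on the same side. Of 10 mucins and trefoil factors, 2 were higher (20%, against 14.3% of all genes) and 3 lower (30%, against 12.1%), which is few genes. TFF1 and TFF2 were higher, and MUC16, MUC20 and MUC1 lower. For MUC16 the shNontarget arrays lay 1.72 apart, and its other probe overlapped between the vectors. MUC1 was at -0.17 and -0.04 against -0.88 and -0.48, with a second probe at -0.59.

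Metallothioneins, small metal-binding proteins induced by zinc and copper, had the highest list median, 0.77, with 6 of 11 higher (54.5%, against 14.3% of all genes) and none lower, but their shNontarget arrays were far apart, with a median of 1.32 on array 1 and 0.19 on array 2. MT1M was at 0.78 and 0.22 against 2.17 and 1.03. The probes of this family share much sequence, so its members may not be separate measurements, and the same holds for the replication-dependent histones. Of 31 histone genes, 10 were higher (32.3%) and 16 had array 1 above and array 2 below (51.6%, against 25.6% of all genes), with medians of 0.90 and -0.16.

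Of 32 genes of hypoxia and glycolysis, 3 were higher (9.38%, against 14.3% of all genes) and 8 lower (25.0%, against 12.1%). SLC2A3, a glucose transporter, was at -2.51 and -2.63 against -4.04 and -3.97, with a second probe at -0.96, and NDRG1, a hypoxia-induced gene, was at 1.20 and 1.32 against 0.38 and -0.12. ADM and ANGPTL4, which hypoxia also induces, were higher by 1.23 and 1.11. Of 29 genes of the ATF4 response to amino acid shortage, 9 were higher (31.0%) and 1 lower (3.45%), led by the amino acid carrier subunit SLC3A2 at 2.25 and 2.10 against 2.73 and 3.21. With the knockdown vectors the ATF4 median was between -1.06 and -0.73, and with shNontarget it was 0.39 and 0.05. Of 27 p53 targets, 10 were higher (37.0%), GDF15 and CDKN1A among them, and 3 were lower (11.1%, near the share over all genes), with a median of 0.11.

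Of the remaining lists, the quiescence genes had 9 of 35 higher (25.7%) and 12 lower (34.3%), against 14.3% and 12.1% of all genes. The counts higher and lower were 5 and 4 of 25 genes of cholesterol synthesis (20% and 16.0%), 3 and 4 of 24 endoplasmic reticulum chaperones (12.5% and 16.7%), and 2 and 3 of 15 aldehyde dehydrogenases (13.3% and 20%). They were 5 and 0 of 24 antioxidant genes under NRF2, 1 and 2 of 20 heat shock proteins, and 4 and 0 of 40 splicing factors. For 16 genes of the RNA interference machinery that processes the hairpins they were 2 and 1, with 9 above on array 2 and below on array 1 (56.2%, against 30.4% of all genes).

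**Figure D4:**
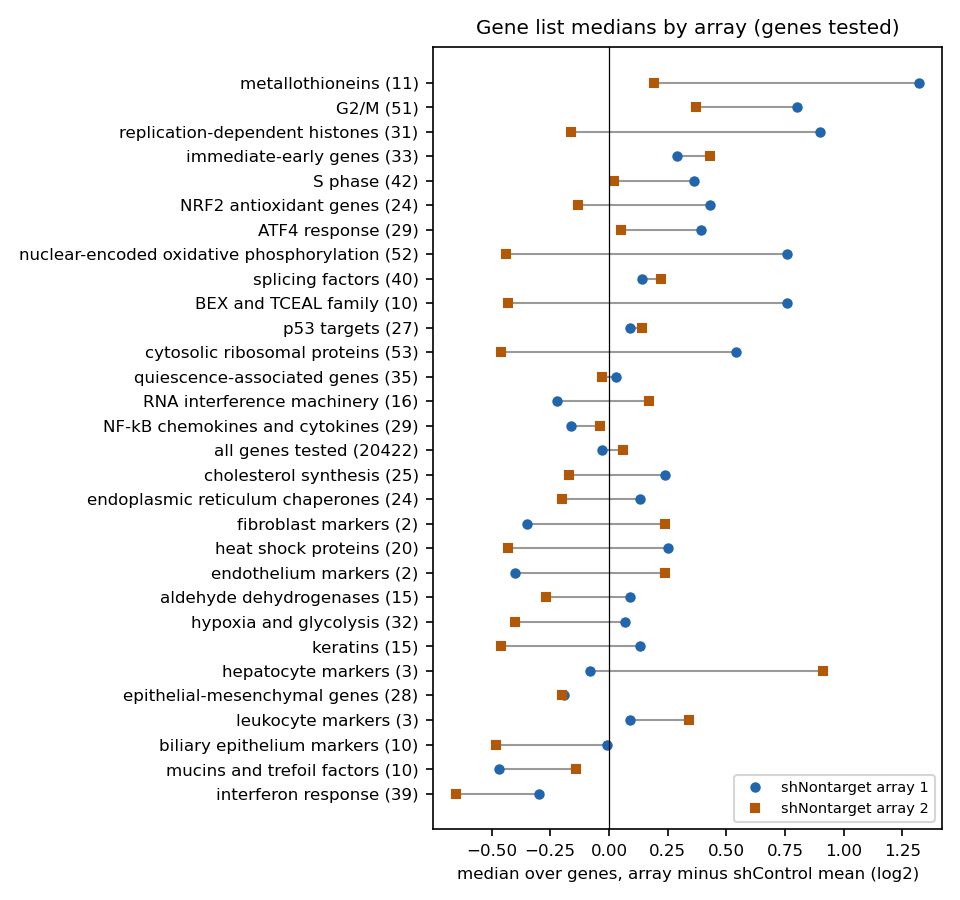
Median over the genes of each list of the log2 level on shNontarget array 1 (circles) and array 2 (squares) minus the shControl mean, with the number of genes measured. Metallothioneins, G2/M genes and immediate-early genes have both arrays to the right of 0, the interferon response has both to the left, and the respiratory chain, ribosomal proteins and BEX and TCEAL genes have the arrays on opposite sides.

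One class of transcript was not among the lists and was grouped by its RefSeq class after the values were seen: small non-coding RNAs. Most are RNAs of the nucleus and nucleolus that take part in the modification, cutting or splicing of other RNAs. Some have other roles or places, among them RN7SL1, RN7SK, TERC and the SNAR RNAs. Such small RNAs lack the poly(A) tail of messenger RNA. Of 56 measured, 32 were above both shControl arrays on both shNontarget arrays (57.1%, against 14.3% of all genes) and none was below. The median was 0.43 above shControl on array 1 and 2.22 on array 2. The snoRNAs among them numbered 32, of which 16 were higher.

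RPPH1, the RNA subunit of the tRNA-processing enzyme RNase P, was at -0.36 and -1.41 with shControl and at 1.76 and 2.85 with shNontarget, a difference of 3.19 (SE 0.57). RMRP, the RNA of the related enzyme RNase MRP, was at 0.23 and -0.51 against 1.3 and 3.03. RN7SK, which holds back the transcription elongation factor P-TEFb, was at 4.07 and 3.29 against 5.53 and 6.79. SNAR-A3 had the largest difference, 3.48, from 5.07 and 3.65 to 7.71 and 7.97, and comes from a family of near-identical copies that 1 probe cannot tell apart.

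The class was not uniform. RN7SL1, the RNA of the signal recognition particle, was higher by 0.85 with its shNontarget arrays 0.03 apart, at 5.93 and 5.90, and SNORD3B-1, the U3 RNA that guides the cutting of ribosomal precursor, was at 7.37 and 7.21 against 7.25 and 7.69. TERC, the RNA of telomerase, was at 0.70 and 0.46 against 0.46 and 2.18. With the knockdown vectors the median of the 56 was also above shControl, at 0.90 and 0.34 for shBEX2-1 and 0.63 and 0.56 for shBEX2-2.

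The probes of 3 members are shown, since the RNA that is bound decides what such a spot measures. They are 60 bases long, read 5′ to 3′ as the array files give them, with hg19 positions.
RPPH1, chr14:20811238-20811297, minus strand: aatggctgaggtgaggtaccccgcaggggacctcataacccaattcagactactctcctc
SNORA74A, chr5:138614609-138614668, plus strand: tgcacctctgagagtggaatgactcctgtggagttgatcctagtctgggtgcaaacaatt
SCARNA16, chr17:75085516-75085575, plus strand: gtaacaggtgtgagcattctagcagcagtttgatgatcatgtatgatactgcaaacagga

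SNORA74A, a guide RNA for the modification of other RNAs, was at -3.00 and -3.36 with shControl and at -1.42 and 0.68 with shNontarget. SCARNA16, a small RNA of the Cajal body, was at -1.59 and -1.85 against 0.20 and 1.80. Array 2 was the higher shNontarget array for all 3, by 1.09, 2.10 and 1.60.

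The gap between the shNontarget arrays differed by level. Over 5 equal groups of genes by their shControl level, from dim to bright, the median of array 1 minus array 2 was -0.70, -0.38, -0.11, 0.11 and 0.51, while the same difference for the shControl arrays stayed between -0.02 and 0.05. By genomic span, from short to long genes, it ran from 0.31 to -0.17, and for the shControl arrays from 0.08 to -0.04. The rank correlation with span was -0.17 for the shNontarget gap and -0.24 for the shControl gap. By GC content of the probe the shNontarget gap ran only from -0.15 to -0.05, and the shControl gap from -0.01 to 0.06. The medians of the mean difference between the vectors stayed between -0.04 and 0.01 over the groups of level. They ran from 0.07 to -0.11 from short to long genes, and from -0.05 to 0.06 from low to high GC content.

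Abundant housekeeping transcripts were the clearest case. Of 53 cytosolic ribosomal protein genes, 51 had array 1 above and array 2 below both shControl arrays (96.2%, against 25.6% of all genes). Their list medians were 0.54 and -0.46, and 1 gene, RPS21, was higher on both (1.89%, against 14.3%). Of 52 nuclear genes of the respiratory chain 45 were likewise split (86.5%, against 25.6%), with medians of 0.76 and -0.44. On both arrays 3 were higher (5.77%, against 14.3%), COX6A1 and NDUFB9 among them. The glycolytic enzymes GAPDH, TPI1, ENO1, PGK1 and LDHA followed the split: GAPDH was at 6.77 and 6.58 with shControl, at 7.32 on shNontarget array 1 and at 6.0 on array 2.

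Long intergenic non-coding RNA probes leaned towards array 2. Of 3615 measured, 1425 had array 2 above and array 1 below both shControl arrays and 553 had the reverse, which is 39.4% and 15.3% against 30.4% and 25.6% of all genes. The median of array 1 minus array 2 was -0.58, against 0.06 for 12826 protein-coding genes. Within the middle group of level it was -0.36 for 596 of these probes and -0.04 for 2816 protein-coding genes. The part of level and of the kind of transcript in the gap was not tested.

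**Figure D5:**
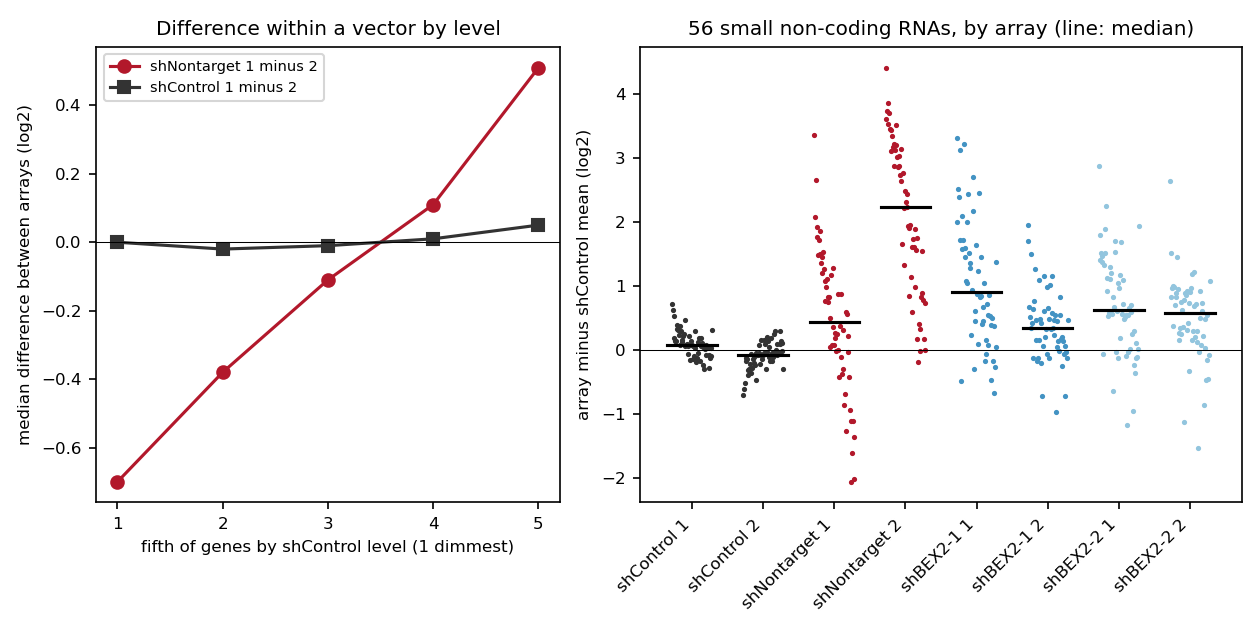
Left, the median difference between the 2 arrays of shNontarget and of shControl (log2) in 5 equal groups of genes by level: it climbs from -0.70 to 0.51 for shNontarget and stays near 0 for shControl. Right, each of 56 small non-coding RNAs on each array minus the shControl mean (log2), with the median as a line: 0.43 and 2.22 on the shNontarget arrays, and the shControl points lie around 0 because their mean is the reference.

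Some genes differed widely between the shNontarget arrays alone. C4orf36, an open reading frame, was at -4.10 and -4.14 with shControl, at 0.25 on shNontarget array 1 and at -4.49 on array 2. TICAM2, an adaptor of toll-like receptors, and UNC5A, a netrin receptor, had array 1 above array 2 by 4.23 and 3.46. NCMAP, a myelin protein gene, and SLC9A9, a sodium-proton exchanger of endosomes, were not well above background on array 2, and array 1 was above it by at least 5.03 and 4.3. In these 5 genes array 1 was above the shControl mean by 2.55 to 4.37.

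HEMK1, a protein methyltransferase, was at -3.62 and -3.24 with shControl and at -1.83 on shNontarget array 2, and was not well above background on array 1, so that array 2 was above array 1 by at least 3.46. PVRIG, an inhibitory receptor of lymphocytes, the pseudogene RPS16P5, the readthrough SLCO1B3-SLCO1B7 and SNORA19 were not well above background on array 1 either, and array 2 was above it by at least 2.17, 1.94, 2.07 and 2.32. On array 2 these 5 genes were only 0.35 to 1.60 above the shControl mean, with RPS16P5 the nearest to it. These bounds use the lowest level that counted as measured on the dimmer array, or the probe's own level where that was higher.

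Other probes of the same genes share the RNA and the arrays but were not used to choose them. For genes chosen as higher by their brightest probe, 501 of 671 other probes (74.7%) had a difference of the same sign, and for those chosen as lower 546 of 649 (84.1%) did. Where the first probe differed by over 1, 44 of 50 other probes (88.0%) had the same sign. Both shNontarget arrays lay on the same side again in fewer: 38.7% of the other probes of higher genes, 46.1% of those of lower genes and 58.0% where the first probe differed by over 1. For genes with the arrays on opposite sides, 2215 of 2667 other probes (83.1%) had array 1 and array 2 in the same order, and 59.7% had them on opposite sides again.

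BEX2, the gene that the series knocks down, was at -3.36 and -3.91 with shControl and at -2.70 and -3.77 with shNontarget. The vectors overlapped, with a difference of 0.40 (SE 0.51), and the knockdown vectors were lower, at -5.21 and -5.54 for shBEX2-1 and -4.92 and -4.60 for shBEX2-2. BEX2 was well above background on only 2 of the 4 knockdown arrays. BEX5 was at -2.40 and -2.51 against -1.37 and -2.90. The BEX and TCEAL family are small acidic proteins encoded on the X chromosome. Of 10 measured members, 9 had array 1 above and array 2 below both shControl arrays (90.0%, against 25.6% of all genes). None was on the same side, and the medians were 0.76 and -0.43.

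CD274, the immune checkpoint ligand PD-L1, was at -1.26 and -1.39 with shControl and at -0.95 and -0.54 with shNontarget, a difference of 0.58 (SE 0.25), and its other probe was also higher, by 0.34. The knockdown vectors were higher still, at 0.16 and -0.06 for shBEX2-1 and 0.49 and 0.41 for shBEX2-2. USF2, a transcription factor, and FEM1B, a substrate receptor of ubiquitin ligases, were higher by 0.26 and 0.30, though the other probe of USF2 gave -0.04. CUL2, a ubiquitin ligase scaffold, overlapped between the vectors. The mitochondrial proteins TUFM, an elongation factor, HSPD1, a chaperonin, IVD, an enzyme of leucine breakdown, and PECR, an enoyl-CoA reductase, all had array 1 above and array 2 below, with mean differences of 0.12, 0.09, -0.04 and -0.14.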

How the data were processed

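Total RNA (100 ng) had been labelled with Cy3 by the Low Input Quick Amp kit, whose primer binds poly(A) tails, and hybridized to Agilent arrays of design 028004. The deposited intensity of each spot is the processed signal of Agilent Feature Extraction 10.7.3.1 per the labels, background-subtracted and not scaled between arrays. The deposited series table gave these intensities to within 0.497%.

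From these values, control spots were left out, non-uniform spots (4 to 15 on each of the 4 arrays) were missing, and log2 intensities minus the 75th percentile of each array were averaged per probe. Probes needed a call well above background on 2 or more of the 4 arrays, and the brightest stood for its gene. Of 34809 array gene names, 19500 matched a RefSeq symbol. Array names that differ (CTGF for CCN2, WISP2 for CCN5) are given by their RefSeq symbol. limma 3.58.1 in R 4.3.3 fitted the 4 arrays with an intensity trend and 2 residual degrees of freedom. A two-sided exact permutation test of 2 against 2 arrays cannot go below p = 0.333. The fit was tested on simulated data. The rank product that the methods name for arrays was not used, since its reference comes from shuffling genes and not from the spread of arrays. Python 3.11.15, pandas 2.3.3 and matplotlib 3.10.9 made tables and figures.

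Members, gene lists and named genes were chosen with earlier results of these data known. Named were genes the study follows, the 10 largest same-side differences each way among genes with a RefSeq symbol whose pairs of arrays lay within 1 unit and whose brighter vector was well above background, the largest 2 of each list, the 5 largest gaps each way between the shNontarget arrays, and the lowest 3 p-values. Other genes named for their list were chosen after their values were seen. A fold is given as a bound where no array of a vector was well above background. Alternatives were quantile normalization, normexp with an offset of 50, the series table, other filters, the mean of all probes, leaving out each array, a replicate block, all 8 arrays, array weights, the methods' t-test and, chosen after seeing the data, cyclic loess. The columns of probe annotation gave hg19 positions. A few genes of the lists are not reported here by name.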

Additional observations from a re-analysis of the deposited data

How the results depend on the processing

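The number of arrays, 2 per vector, limits the precision, and which shNontarget array is nearer to other cells of that vector cannot be told. The count of genes at an adjusted p under 0.05 stayed 0 under quantile normalization, normexp, cyclic loess, the series table, each filter, the mean of all probes, the model of all 8 arrays, array weights (0.076 for each shNontarget array, 2.578 for each shControl array) and the methods' t-test after adjustment. It was 1050 with the methods' t-test at the methods' threshold without adjustment, and from 0 to 8941 when an array was left out. The 1050 genes of the unadjusted t-test were out of 20422 tested. At the methods' threshold of 0.05 about as many are expected by chance alone. The labels give both vectors replicates 1 and 2 but do not say what the numbers share. Across genes, shControl 1 minus 2 and shNontarget 1 minus 2 correlated at r = 0.21. With the number as a replicate block 2 genes passed, FOS (5.18, adjusted p = 0.0269) and A_33_P3258561 (-5.63, adjusted p = 0.0271). A_33_P3258561 was not well above background on either shNontarget array. Its difference and its p therefore rest on background values there, and only the bound of at least 11.9-fold lower is measured.

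Without a filter 3984 genes were lower on the same side. Cyclic loess gave 2920 higher and 2904 lower, of which 2101 and 1924 were among those reported. With an array left out the counts ran from 3636 to 9881 higher and from 3537 to 9775 lower, the highest without a shNontarget array, since 1 array then has to lie beyond the shControl arrays. Under normexp 3311 genes had shNontarget arrays over 1 apart and 178 had shControl arrays so; with a filter on all 4 arrays the latter was 179. The cause was not tested.

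Of 88 named genes, 71 kept the sign of their difference whichever array was left out, including the 20 plotted by array. This count is not a further test. A gene with both shNontarget arrays on the same side must keep its sign. A gene with them on opposite sides must change it when a shNontarget array is left out. Outside the left-out arrays, the sign turned for HSPD1 under quantile normalization (-0.01) and for HEMK1 (0.11), PVRIG (0.09), SLCO1B3-SLCO1B7 (0.13) and SNORA19 (0.16) under normexp. With an array left out it turned for BEX2 (-0.13 to 0.94), BEX5 (-0.44 to 1.09), CUL2 (-0.33 to 0.10), TUFM (-0.04 to 0.28), HSPD1 (-0.22 to 0.39), IVD (-0.22 to 0.14), PECR (-0.52 to 0.25), NCMAP (-1.41 to 3.62), C4orf36 (-0.37 to 4.37), SLC9A9 (-0.71 to 3.76), TICAM2 (-0.44 to 3.79), UNC5A (-0.91 to 2.55), HEMK1 (-2.81 to 1.60), PVRIG (-2.85 to 1.47), RPS16P5 (-3.69 to 0.35), SLCO1B3-SLCO1B7 (-2.18 to 1.57) and SNORA19 (-2.07 to 1.54).

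List medians with an array left out ran as follows, by sign, for lists whose median moved by more than their spread within vectors. They stayed above 0 for G2/M (0.37 to 0.80), S phase (0.02 to 0.36), metallothioneins (0.19 to 1.32), ATF4 (0.05 to 0.39), p53 (0.04 to 0.14) and splicing (0.10 to 0.22), and below 0 for interferon (-0.65 to -0.30), epithelial-mesenchymal (-0.24 to -0.18) and biliary genes (-0.48 to -0.01). They crossed 0 for histones (-0.16 to 0.90), respiratory chain (-0.44 to 0.76), ribosomal proteins (-0.46 to 0.54), RNA interference (-0.22 to 0.17), NRF2 (-0.13 to 0.43), heat shock (-0.43 to 0.25), cholesterol (-0.17 to 0.24), hypoxia (-0.40 to 0.07), NF-kB (-0.16 to 0.03), quiescence (-0.03 to 0.06), keratins (-0.46 to 0.13), aldehyde dehydrogenases (-0.27 to 0.09), hepatocyte (-0.36 to 0.91) and leukocyte markers (-0.37 to 0.34). Lists that moved less are not in these ranges, but some have shNontarget arrays on either side of 0. Medians on arrays 1 and 2 were 0.76 and -0.43 for BEX and TCEAL genes and 0.13 and -0.20 for endoplasmic reticulum chaperones. They were -0.35 and 0.24 for fibroblast and -0.40 and 0.24 for endothelium markers. Immediate-early genes and mucins and trefoil factors kept 1 sign. With all arrays kept, the epithelial-mesenchymal median was -0.25 with quantile normalization and -0.27 with the mean of all probes, which gave 0.03 for p53 targets. The hepatocyte median, over 3 genes, was -0.56 and 0.17 under the filters on 4 and on 8 arrays. The leukocyte median, over 3 genes, was -0.18, -0.03, -0.09, 0.14 and -0.21 under quantile, normexp, the filter on 4 arrays, the mean of all probes and cyclic loess. Of 29 lists, 7 had medians of either sign over the settings that kept all arrays: NF-kB, RNA interference, ribosomal proteins, and endothelium, fibroblast, hepatocyte and leukocyte markers.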
